A study of Homo sapiens with 12 samples.

Results

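The genes described here encode the translation initiation and elongation factors of the human cell and the kinases, repressors and modifying enzymes named after them. They are the protein-coding rows of the expression table whose symbol begins with EIF and a digit from 1 to 6, EEF and 1 or 2, or PABPC and a digit. A total of 74 of the 51112 gene rows met this rule, and 66 of them reached 10 normalized counts in 3 or more libraries and were tested. Of the 8 that were not tested, 4 (EIF4E1B, PABPC1L2A, PABPC1L2B and PABPC5) were at 0 in all libraries, and 3 others (EEF1E1-BLOC1S5, EIF5AL1 and PABPC3) stayed at or under 18 normalized counts. EIF3K, EEF1B2, EIF5A, EEF1AKMT4 and EEF1AKNMT, which belong to the same complexes and pathways, are not analysed here.

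The libraries came from K-562, an established line grown from a chronic myeloid leukaemia, and polyadenylated RNA was read with a strand-specific protocol. Cells in exponential growth received 5 µM Si-711, described by the submitters as an inhibitor of the deacetylases SIRT1 and SIRT2, and were collected after 8, 24 or 48 h. Untreated cells form the 0 h group, and each of the 4 groups has 3 biological replicates. No vehicle-treated or later untreated culture is part of the design, so exposure to Si-711 and time in culture cannot be told apart, and the same 3 untreated libraries serve each comparison with untreated cells.

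Translation begins when eIF2, loaded with GTP and the initiator tRNA, joins the small ribosomal subunit together with eIF1, eIF1A, eIF3 and eIF5, and when the eIF4F complex recruits that subunit to the capped end of an mRNA. Kinases of the EIF2AK family phosphorylate the alpha subunit of eIF2, which blocks its recharging by the exchange factor eIF2B, and EIF4EBP proteins hold the cap-binding protein eIF4E away from its scaffold until mTORC1 phosphorylates them. Elongation is carried by eEF1A, which brings charged tRNAs to the ribosome, by its exchange factor eEF1B, and by eEF2, which moves the ribosome along. Many mRNAs of elongation factors and ribosomal proteins start with a C followed by a run of pyrimidines, the terminal oligopyrimidine (TOP) tract, through which growth signals set their translation.

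The 12 libraries summed to between 27070528 and 37117837 normalized counts, with the highest totals at 48 h (34614827 to 37117837, against 31387546 to 31718907 in untreated cells). Replicates of a group correlated at 0.964 to 0.974 and libraries of different groups at 0.882 to 0.966 (Pearson, across genes, which are not independent). The first principal component placed replicate 1 at 24 h at 1.61, apart from the other 24 h libraries at -0.81 and -0.70. The 8 erythroid and leukaemic markers fixed for K-562 were present in every group, and their summed level went from 303955 to 557613 in untreated cells to 62146 to 86679 at 8 h. Of 12 markers of other cell types 11 were found, with a sum of 2167 to 4246 per library and CD8A, KRT5 and MS4A1 at 0. In RNA from whole cultures, fewer cells of a kind and less RNA per cell cannot be told apart.

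Translation factor mRNAs moved down first and then split. After 8 h, 6 tested members rose and 19 fell by limma (adjusted p under 0.05), against 13% and 15.2% of all 15424 genes tested. After 24 h, 13 rose and 28 fell, against 22.9% and 24.7% of all genes. After 48 h, 29 rose and 21 fell, against 32.3% and 33.8% of all genes. The median log2 fold change of the tested members was -0.23 at 8 h, -0.25 at 24 h and 0.17 at 48 h, beside -0.01, 0.02 and -0.05 for all genes tested.

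These balances depend on the scaling. With library totals made equal, which moves the median of all genes to 0.14, 0.20 and -0.24, the splits became 8 up and 8 down at 8 h, 21 up and 20 down at 24 h and 28 up and 25 down at 48 h. Quantile normalization gave 9 up and 8 down at 8 h, 21 up and 24 down at 24 h and 26 up and 23 down at 48 h. The 8 h falls numbered 12 without untreated replicate 2 and 12 without 8 h replicate 2.

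The turn came between 24 and 48 h. In that step 35 tested members rose and 12 fell, against 25.1% and 27.1% of all genes, and the median was 0.44, though equal totals gave 23 up and 20 down with a median of 0.06. Measured from 8 to 48 h, 37 rose and 18 fell, against 29.8% and 32.2% of all genes. From 8 to 24 h, 12 rose and 10 fell, against 8.31% and 9.83% of all genes. Counts of this early step moved with single libraries: 5 rose and 5 fell without 8 h replicate 3, 6 fell without 8 h replicate 1, and 7 rose without 24 h replicate 1.

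Of the 66 tested members, 57 (86.4%) were called at some time against untreated cells, beside 76.8% of all genes tested. The most frequent course, in 12 members (18.2%, beside 11.7% of all genes), was a rise seen at 48 h alone, and it was that of EEF1A1, EEF1G, EEF2, EIF2AK1, EIF2B5, EIF2S2, EIF2S3, EIF3C, EIF3D, EIF3L, EIF3M and EIF4EBP3. Another 11 members (16.7%, beside 8.9% of all genes) first fell at 24 h and were still down at 48 h. EIF1AX, EIF2B1, EIF2S1, EIF3B, EIF4E, EIF4G1, EIF4G2 and PABPC4 fell at all 3 times (12.1%, beside 9.2% of all genes), whereas EEF1A2, EIF2AK4, EIF4G3 and PABPC1L rose at all 3 (6.06%, beside 9.13%). The fall at 8 h was not called with equal totals for EIF4E (-0.27), EIF4G1 (-0.15) and PABPC4 (-0.13), nor under quantile normalization for these 3 (-0.24, -0.03 and -0.08) and EIF2B1 (-0.20).

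**Figure D1:**
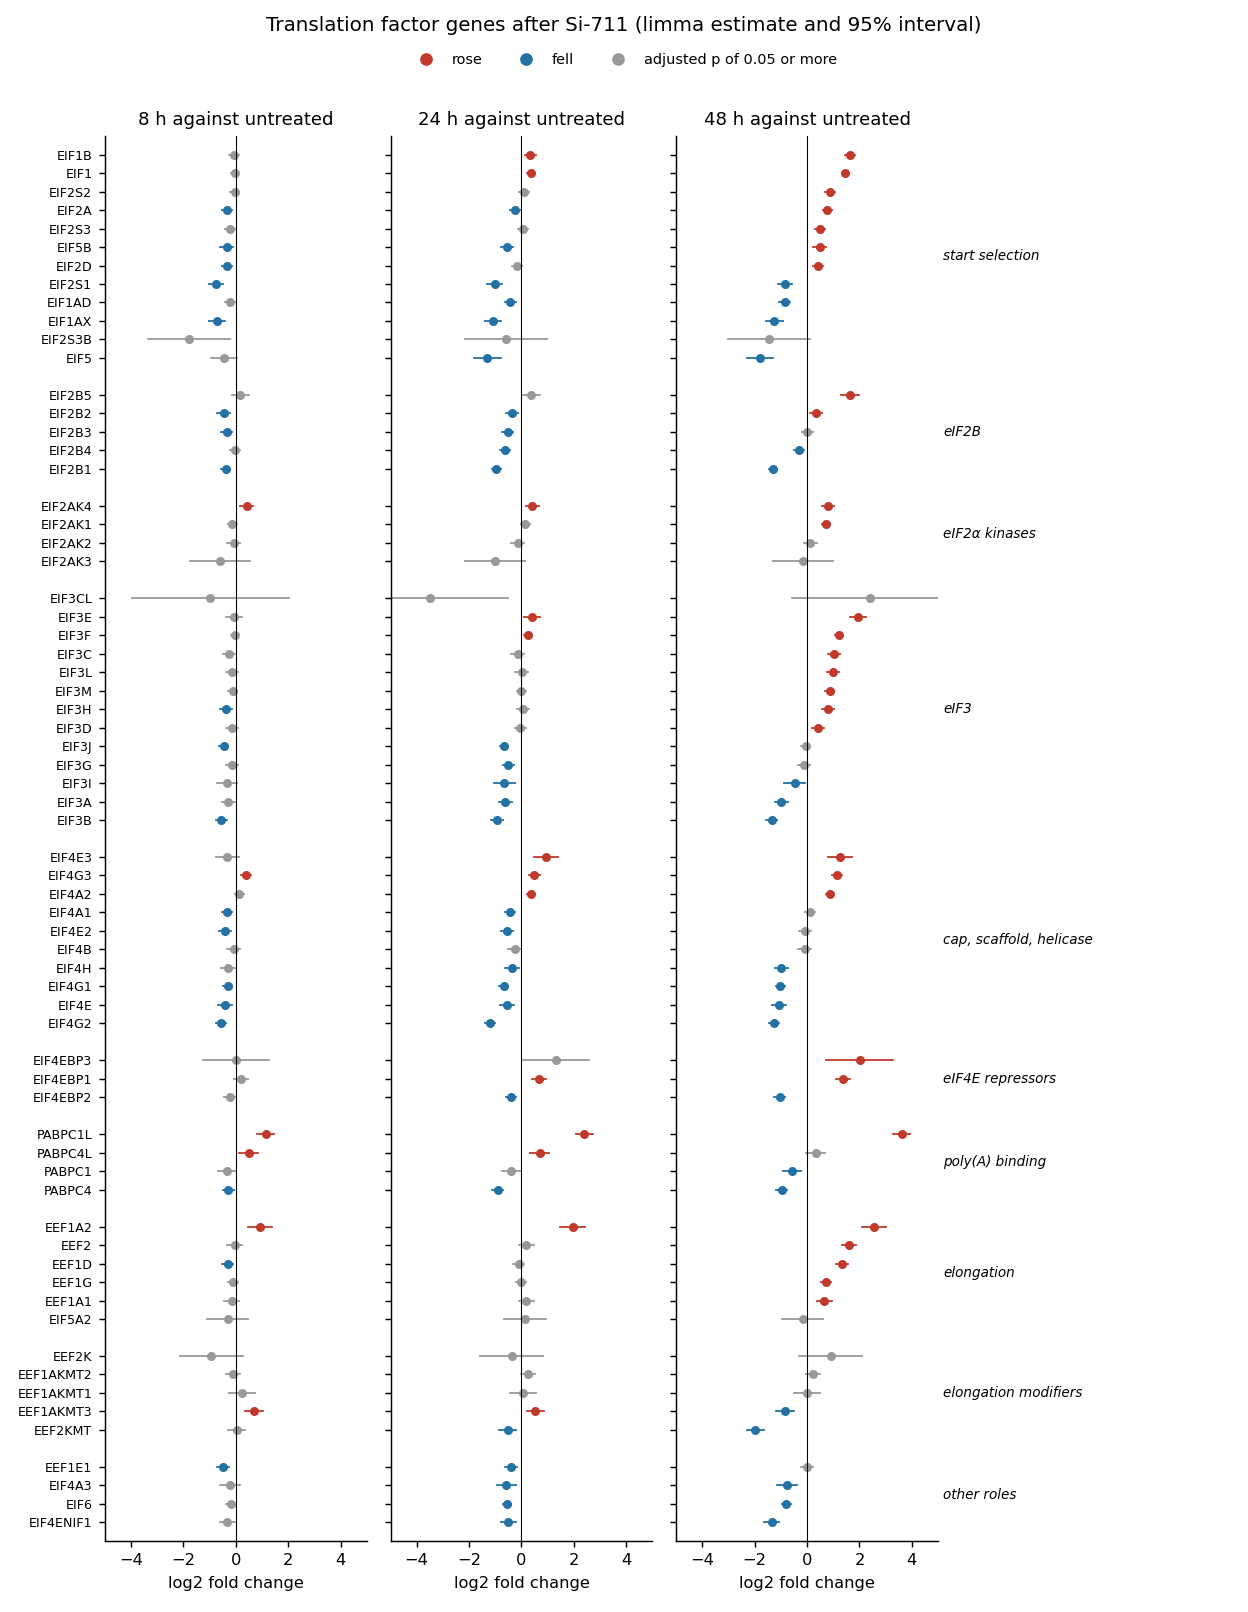
Log2 fold change of each tested member against untreated cells (horizontal axis) at 8, 24 and 48 h, with the 95% interval from limma, grouped by role and ordered within a role by the value at 48 h. The intervals of EIF3CL are clipped at the edge of the axis. The elongation factors lie to the right at 48 h with 5 of 6 called, while initiation factors spread both ways with 19 up and 13 down of 40.

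The calls are given by functional class, with no test between classes. Among all genes tested, 13% rose and 15.2% fell at 8 h, 22.9% and 24.7% at 24 h, and 32.3% and 33.8% at 48 h. Counts near these shares, such as the falls of initiation factors at 48 h, say nothing particular about a class. Of 40 tested initiation factors, 1 rose and 16 fell at 8 h, 7 rose and 21 fell at 24 h, and 19 rose and 13 fell at 48 h. With equal totals these splits were 2 up and 7 down, 11 and 18, and 18 and 17, and under quantile normalization 2 and 7, 13 and 18, and 18 and 15. Of 6 tested elongation factors, 1 rose and 1 fell at 8 h, 1 rose at 24 h, and 5 rose with none down at 48 h, or 3 under quantile normalization. Of 4 EIF2AK kinases, 1 rose at 8 h, 1 at 24 h and 2 at 48 h, and of 3 EIF4EBP repressors, 1 rose and 1 fell at 24 h and 2 rose and 1 fell at 48 h. As a share of all normalized counts, initiation factors were 1.41% ± 0.01 (SD, n = 3) in untreated cells and 1.37% ± 0.05 (n = 3) at 48 h. Elongation factors went from 1.08% ± 0.06 (n = 3) to 1.90% ± 0.16 (n = 3). Cytosolic ribosomal proteins, for comparison, went from 7.18% ± 0.33 (n = 3) to 13.4% ± 0.78 (n = 3), and 67 of 76 of their genes rose at 48 h.

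Members were also grouped by the first bases of the transcript, and the sequences are printed to show this feature. RefSeq promoter windows (GRCh38.p14, from 250 bases before to 50 after the start) were matched for 57 of 74 members, 50 of them tested. A transcript start of a C followed by 4 pyrimidines was found in 11 of the 50 tested members, a gene being counted if any of its windows matched. Counted in the same way, 761 of all tested protein-coding genes with a window had such a start and 9410 did not. As a share of single windows it was 4.07% of all 35116. The lines give 15 bases before and 15 bases from the start, 5′ to 3′, for 10 of these 11 (EIF2S3B, a low near copy of EIF2S3, is left out), with the C and its 4 pyrimidines in capitals.
EEF1A1 (chr6:73521018-73521047, minus strand): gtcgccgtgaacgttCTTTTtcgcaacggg
EEF2 (chr19:3985449-3985478, minus strand): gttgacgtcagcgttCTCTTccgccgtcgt
EIF2A (chr3:150546772-150546801, plus strand): tcacccgagcggtttCTCTTtccgggacaa
EIF2D (chr1:206612451-206612480, minus strand): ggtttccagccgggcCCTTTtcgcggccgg
EIF2S3 (chrX:24054941-24054970, plus strand): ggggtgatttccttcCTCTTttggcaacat
EIF3D (chr22:36529152-36529181, minus strand): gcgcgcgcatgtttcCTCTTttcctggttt
EIF3F (chr11:7987322-7987351, plus strand): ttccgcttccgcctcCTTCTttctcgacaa
EIF3M (chr11:32583816-32583845, plus strand): gcgcggcccagttccCTTTTccggtcggcg
EIF4A2 (chr3:186783562-186783591, plus strand): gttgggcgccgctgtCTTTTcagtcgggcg
EIF4B (chr12:53006441-53006470, plus strand): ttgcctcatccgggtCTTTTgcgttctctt

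Members with this start mostly rose at 48 h. Of the 11, 9 rose and none fell, with a median log2 fold change of 0.66, and the exceptions were EIF4B at -0.08 and EIF2S3B at -1.45, neither of them called. Equal totals gave 9 up and 1 down, and quantile normalization 7 up and 1 down. Of the 39 tested members whose window starts otherwise, 12 rose and 16 fell, with a median of -0.06. The elongation factor gene EEF1G, which rose by 0.72, is counted among these 39. Among all tested protein-coding genes with a window, 50.1% of 761 with such a start rose and 23.1% fell, against 33.8% and 35.4% of 9410 without it. At 24 h the members with the start counted 2 up and 1 down of 11, and the others 7 up and 23 down of 39.

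For contrast, the windows of 3 members that fell at all 3 times hold no C with 4 pyrimidines at the start; these too show 15 bases before and 15 from the start, all in lower case.
EIF3B (chr7:2354812-2354841, plus strand): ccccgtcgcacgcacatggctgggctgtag
EIF2B1 (chr12:123633672-123633701, minus strand): gaggggtacggaagtgcgccggaagtgggg
EIF4E (chr4:98929119-98929148, minus strand): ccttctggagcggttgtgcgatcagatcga

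A list of 10 genes known for TOP mRNAs, 9 of them members, had 7 up and 1 down of 9 tested at 48 h and a median of 0.80. Quantile normalization gave 5 up and 2 down of the 9. The member that fell was PABPC1, which had no matched window and so is in neither group of the split by transcript start. Tested members outside the list counted 22 up and 20 down of 57, with a median of 0.01. The E-box CACGTG, searched on both strands, lay in the windows of 12 tested members, and 3 of the 12 rose and 4 fell at 48 h. Among all tested protein-coding genes with a window, 1139 held it and 9032 did not, and 29.7% of the 1139 rose and 41.8% fell. As a share of single windows it was 6.34%. The amino acid response element, searched on both strands by its 8 letters TGATGNAA, lay in 3.14% of single windows and was found for 1 tested member, EIF4E3. Among all tested protein-coding genes with a window, 236 held it and 9935 did not.

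**Figure D2:**
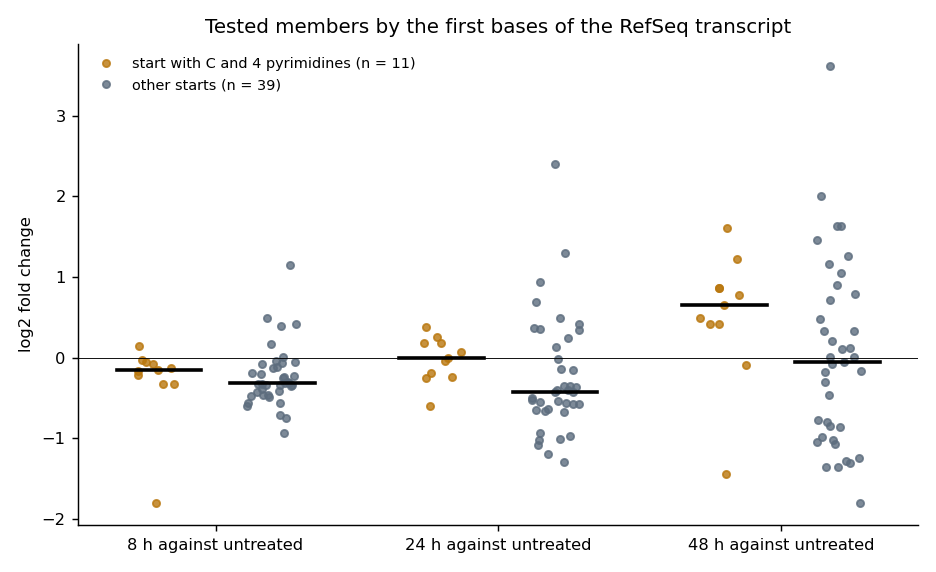
Log2 fold change against untreated cells (vertical axis) of the tested members with a RefSeq window, at 8, 24 and 48 h, split by whether the transcript starts with a C and 4 pyrimidines (11 members) or not (39). Points are members and black lines are medians, which at 48 h lie at 0.66 and -0.06.

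eIF2 is a trimer, and its subunit mRNAs took different courses. EIF2S1 (chr14:67359997-67386516), which encodes the alpha subunit that the kinases phosphorylate, had 8836, 8286 and 8870 normalized counts in untreated cells, 5125, 5371 and 4925 at 8 h, 3501, 4593 and 4783 at 24 h, and 5807, 4057 and 4798 at 48 h. Every treated library lay under every untreated one, and EIF2S1 fell by 0.75 on the log2 scale at 8 h (SE 0.13, adjusted p = 0.00111), 1.03 at 24 h and 0.84 at 48 h. EIF2S3, which encodes the gamma subunit that binds GTP and the initiator tRNA, had 32471, 32866 and 31401 in untreated cells and 49046, 40428 and 47368 at 48 h. Its rise of 0.50 at 48 h (SE 0.09, adjusted p = 0.000248) was 0.06 under quantile normalization (adjusted p = 0.399). EIF2S2, for the beta subunit, rose 1.85-fold at 48 h, a log2 fold change of 0.89 (SE 0.09, adjusted p = 8.04e-07). The ratio of EIF2S3 to EIF2S1 within a library went from 3.72 in untreated cells to 5.41, 7.95 and 9.40 at 8, 24 and 48 h. The untreated and treated ranges did not overlap at any time (exact permutation p = 0.1, two-sided, the smallest possible). This pair was chosen after its values were seen, so the lack of overlap adds no separate support.

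A group of 12 tested members holds the factors that bring the initiator tRNA or choose the start codon. EIF1AD and EIF2S3B were placed there by name. Of these 12, 5 fell at 8 h, and 2 rose and 6 fell at 24 h. At 48 h 7 rose and 4 fell, against 32.3% and 33.8% of all genes. The falls at 48 h were in EIF5, EIF1AX, EIF1AD and EIF2S1. EIF5 (chr14:103333544-103345025), whose product triggers GTP hydrolysis by eIF2 at the start codon, had 12149, 13160 and 12832 in untreated cells, 9480, 8821 and 9489 at 8 h, 2964, 6454 and 7194 at 24 h, and 3978, 3482 and 3491 at 48 h. Replicate 1 at 24 h was far under its fellow libraries, but at 48 h all 3 were close together, 3.49-fold under untreated cells (log2 fold change -1.80, SE 0.23, adjusted p = 1.4e-05). EIF1AX, for the scanning factor eIF1A, went from 12121, 12394 and 11904 to 5109, 4170 and 6278 at 48 h, a log2 fold change of -1.25 (SE 0.15). EIF1, the factor that guards against wrong start codons, went the other way, from 14920, 14516 and 14015 to 41944, 37356 and 40444 at 48 h. It rose by 1.46 (SE 0.07, adjusted p = 2.47e-09), and its paralog EIF1B (chr3:40309684-40312424) rose by 1.64 (SE 0.09). The EIF1 to EIF1B ratio went from 9.08 in untreated cells to 8.02 at 48 h, with every 48 h library below every untreated one.

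EIF5B, whose GTPase joins the ribosomal subunits, and EIF2A and EIF2D, whose products can deliver initiator tRNA without eIF2, fell at 8 h and rose at 48 h. EIF5B had 5638, 5447 and 6018 in untreated cells, 4614, 3534 and 3672 at 24 h and 7375, 7706 and 8775 at 48 h, so that the 24 h libraries lay below and the 48 h libraries above all untreated ones. Its log2 fold change was -0.54 at 24 h (SE 0.11, adjusted p = 0.0012) and 0.48 at 48 h (SE 0.11, adjusted p = 0.00171). EIF2A went from 4282, 4677 and 4392 to 7929, 6754 and 8194 at 48 h, a rise of 0.77 (SE 0.09). The 8 h calls of these 3 genes were lost when untreated replicate 2 was left out, at -0.38 for EIF5B, -0.29 for EIF2A and -0.28 for EIF2D, and also when 8 h replicate 2 was, at -0.27, -0.29 and -0.27. They were lost as well with equal totals (-0.19, -0.17 and -0.17) and under quantile normalization (-0.15, -0.15 and -0.18).

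eIF2B, the exchange factor that recharges eIF2, has 5 subunits, and 3 of their genes fell at 8 h and 4 at 24 h. At 48 h 2 rose and 2 fell, against 32.3% and 33.8% of all genes. EIF2B5 (chr3:184135038-184146112), for the catalytic epsilon subunit, had 479, 433 and 497 in untreated cells, 736, 579 and 524 at 24 h and 1287, 1556 and 1558 at 48 h, a 3.11-fold rise (log2 1.64, SE 0.15, adjusted p = 6.33e-07). EIF2B1, for the regulatory alpha subunit, had 6610, 6677 and 6854 in untreated cells, 5228, 4841 and 5323 at 8 h, 3098, 3590 and 3659 at 24 h and 2722, 2721 and 2731 at 48 h. Each group lay wholly under the one before it, and the log2 fold change at 48 h was -1.30 (SE 0.08, adjusted p = 1.1e-08). The ratio of EIF2B5 to EIF2B1, a pair chosen after its values were seen, was 0.0699 in untreated cells and 0.536 at 48 h. EIF2B2 rose at 48 h by 0.34 (adjusted p = 0.014), a call lost without 48 h replicate 1 (0.29) or without 48 h replicate 3 (0.29), and lost with equal totals (0.14). EIF2B3 was at 0.01 and EIF2B4 fell by 0.30 at 48 h. The 8 h fall of EIF2B3 was not called with equal totals (-0.18) or under quantile normalization (-0.16). It was also lost without untreated replicate 1 (-0.34) or 3 (-0.32) or 8 h replicate 2 (-0.25). EIF2B1 at 8 h was not called under quantile normalization (-0.20). The 24 h fall of EIF2B2 was lost with equal totals (-0.17), without untreated replicate 1 (-0.33) and without 24 h replicate 2 (-0.27).

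Of the kinases that phosphorylate eIF2 alpha, EIF2AK4 (GCN2, which senses uncharged tRNA; chr15:39934146-40035591) and EIF2AK1 (HRI, the heme-regulated kinase of erythroid cells; chr7:6022244-6059230) rose. EIF2AK4 had 1398, 1279 and 1452 in untreated cells, 1858, 1755 and 1885 at 8 h, 2124, 1665 and 1750 at 24 h and 2172, 2288 and 2705 at 48 h. All treated libraries were above all untreated ones, and the log2 fold change was 0.41 at 8 h (SE 0.11, adjusted p = 0.0132) and 0.79 at 48 h (SE 0.11, adjusted p = 2.54e-05). Without untreated replicate 2 the 8 h value was 0.36 (adjusted p = 0.059), and with median centring the 24 h value of 0.42 became 0.28 and was no longer called. EIF2AK1 stayed between 8409 and 10686 through 24 h and reached 14701, 14750 and 16377 at 48 h, a rise of 0.72 (SE 0.08, adjusted p = 2.03e-06).

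EIF2AK2 (PKR, the kinase of double-stranded RNA) and EIF2AK3 (PERK, of the endoplasmic reticulum) were not called at any time. EIF2AK2 was at 1907, 2082 and 2260 in untreated cells and 2224, 2270 and 2290 at 48 h, with a 48 h interval around 0.12 (SE 0.11). EIF2AK3 varied too much to be judged, from 137 to 388 in untreated cells and from 53 to 322 at 8 h, with an SE of 0.53. In a list of 8 genes that reverse eIF2 alpha phosphorylation or act around GCN2, 4 rose and 2 fell at 48 h. The shares of all genes were 32.3% and 33.8%, and equal totals gave 2 up and 3 down of the 8. PPP1R15A (GADD34), the stress-induced phosphatase subunit, rose by 2.15 at 48 h (SE 0.14, adjusted p = 3.25e-08), and ATF4, the transcription factor whose mRNA is translated when eIF2 is phosphorylated, rose by 0.42, 0.69 and 1.14 at 8, 24 and 48 h. PPP1CA, the catalytic phosphatase subunit, fell by 0.54 at 48 h, and IMPACT, an inhibitor of GCN2, rose by 0.64 at 24 h.

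eIF3, the largest initiation factor, holds the small subunit and the mRNA together. Its subunit mRNAs divided at 48 h with 7 up and 3 down of 13, beside 32.3% and 33.8% of all genes. Subunits of the octamer that forms its structural core, grouped after their values were seen, counted 6 up and 1 down of 7, with a median of 0.99 and the same count under equal totals, median centring and quantile normalization. Subunits outside the octamer counted 1 up and 2 down of 5, with a median of -0.12, and 1 up and 4 down with equal totals. At 8 h 3 eIF3 genes fell, and at 24 h 2 rose and 5 fell, or 6 and 4 under quantile normalization.

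EIF3E, a core subunit, had 4767, 4849 and 5036 in untreated cells, 5438, 4115 and 4475 at 8 h, 8338, 5922 and 5458 at 24 h and 16630, 18353 and 21570 at 48 h. The 48 h libraries lay far above all the others, with a 3.84-fold rise (log2 1.94, SE 0.15, adjusted p = 1.01e-07), whereas the 24 h call (0.40, adjusted p = 0.0382) was lost without 24 h replicate 1, at 0.22, and without any 1 of the untreated libraries, at 0.39 to 0.43. EIF3F rose by 1.23 (SE 0.07), EIF3C by 1.04 (SE 0.11), EIF3L by 0.99 (SE 0.11), EIF3M by 0.86 (SE 0.08) and EIF3H by 0.80 (SE 0.10) at 48 h. EIF3A, the subunit on which the core is built, was the exception and fell from 20693, 21235 and 22237 to 11578, 10053 and 10914, a log2 fold change of -0.98 (SE 0.11, adjusted p = 3.26e-06).

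EIF3B (chr7:2354086-2380745), the scaffold of the module outside the octamer, had 29353, 29665 and 31645 in untreated cells, 21768, 18055 and 22008 at 8 h, 13771, 16163 and 17683 at 24 h and 11705, 11454 and 12217 at 48 h. Each group lay wholly under the one before it, and the log2 fold change at 48 h was -1.36 (SE 0.10, adjusted p = 6.38e-08). EIF3I fell by 0.47 at 48 h, a call lost without 48 h replicate 2 (-0.27) or 3 (-0.46), without untreated replicate 2 (-0.41) or 3 (-0.44), and with median centring (-0.41). EIF3G and EIF3J were down at 24 h (-0.50 and -0.67) and not called at 48 h, and EIF3D rose by 0.41. In untreated cells there were 0.162 EIF3E counts for each EIF3B count, and at 48 h 1.59, a pair chosen after its values were seen. EIF3CL, a near-identical copy of EIF3C with which it can trade reads, ranged from 0 to 125 at 24 h and from 1126 to 2019 at 48 h, called as a rise between those times (adjusted p = 0.00289, SE 1.39) and not called against untreated cells at any time.

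**Figure D3:**
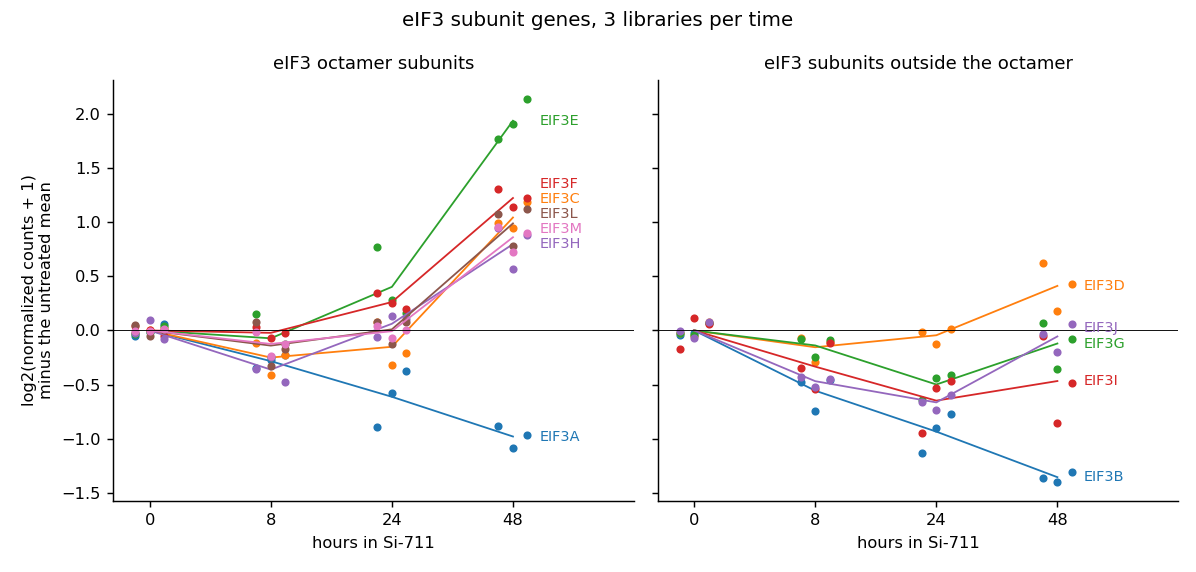
Log2(normalized counts + 1) of eIF3 subunit genes minus the mean of the untreated libraries (vertical axis) by hours in Si-711, with each library as a point and group means joined by lines. In the octamer EIF3A ends at -0.98 and the other 6 genes between 0.80 and 1.94, and outside it EIF3B ends at -1.36.

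The cap-binding complex eIF4F joins the cap-binding protein eIF4E, the scaffold eIF4G and the helicase eIF4A. Of 10 tested genes of this group, 1 rose and 5 fell at 8 h, and 3 rose and 6 fell at 24 h. At 48 h 3 rose and 4 fell (6 down with equal totals), against 32.3% and 33.8% of all genes. Several falls were not called with equal totals or under quantile normalization. At 8 h these were EIF4A1 (-0.17 and -0.01), EIF4E (-0.27 and -0.24), EIF4E2 (-0.25 and -0.28) and EIF4G1 (-0.15 and -0.03). At 24 h EIF4H was not called in either scaling (-0.17 and 0.01). EIF4E (chr4:98871684-98930637) had 7537, 7577 and 7523 in untreated cells, 6275, 4939 and 5656 at 8 h, 4291, 5109 and 6008 at 24 h and 3988, 3153 and 3683 at 48 h. All treated libraries were below all untreated ones, and the log2 fold change at 48 h was -1.07 (SE 0.12, adjusted p = 4.67e-06). The fall at 8 h (-0.43, adjusted p = 0.02) was lost without 8 h replicate 2, at -0.34, and without untreated replicate 1 or 2, at -0.43 for either. EIF4E2, a cap-binding homolog that represses translation, fell at 8 and 24 h and was back at -0.07 at 48 h, and EIF4E3, a further homolog, rose from 121 to 214 in untreated cells to 408, 417 and 409 at 48 h.

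The scaffold genes drew closer in level. EIF4G1 (chr3:184314495-184335358) had 17544, 17594 and 19523 in untreated cells, 14899, 13950 and 15070 at 8 h, 10558, 11198 and 12501 at 24 h and 8301, 9663 and 9004 at 48 h, a log2 fold change of -1.02 at 48 h (SE 0.08, adjusted p = 1.81e-07). Its fall of 0.31 at 8 h was lost without 8 h replicate 2 (-0.28) and without untreated replicate 3 (-0.26). EIF4G3 (chr1:20806292-21176888), the other full-length scaffold, had 2477, 2721 and 2691 in untreated cells, 3373, 3923 and 3085 at 8 h, 3575, 3733 and 3815 at 24 h and 5489, 6091 and 6030 at 48 h, a rise of 1.16 (SE 0.09, adjusted p = 1.17e-07). EIF4G2, which lacks the eIF4E-binding site and serves cap-independent initiation, went from 37853, 37047 and 40796 to 16217, 17306 and 14335, a 2.42-fold fall. The EIF4G1 to EIF4G3 ratio was 6.93 in untreated cells and then 4.25, 3.07 and 1.53 at the 3 times.

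The helicase genes drew together as well. EIF4A1, the main helicase, had 35515, 35939 and 37091 in untreated cells, 28035, 25480 and 27567 at 24 h and 43047, 34186 and 39890 at 48 h. It fell by 0.42 at 24 h (SE 0.09, adjusted p = 0.00164), and its 48 h value of 0.10 was not called, or -0.28 and called as a fall under quantile normalization. EIF4A2 rose from 8356, 7646 and 7621 to 14466, 15454 and 13258 at 48 h (0.87, SE 0.07), and the ratio of EIF4A1 to EIF4A2 moved from 4.60 to 2.71. EIF4H, a helper of the helicase, fell by 0.98 at 48 h, and EIF4B, the other helper, was at -0.08.

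**Figure D4:**
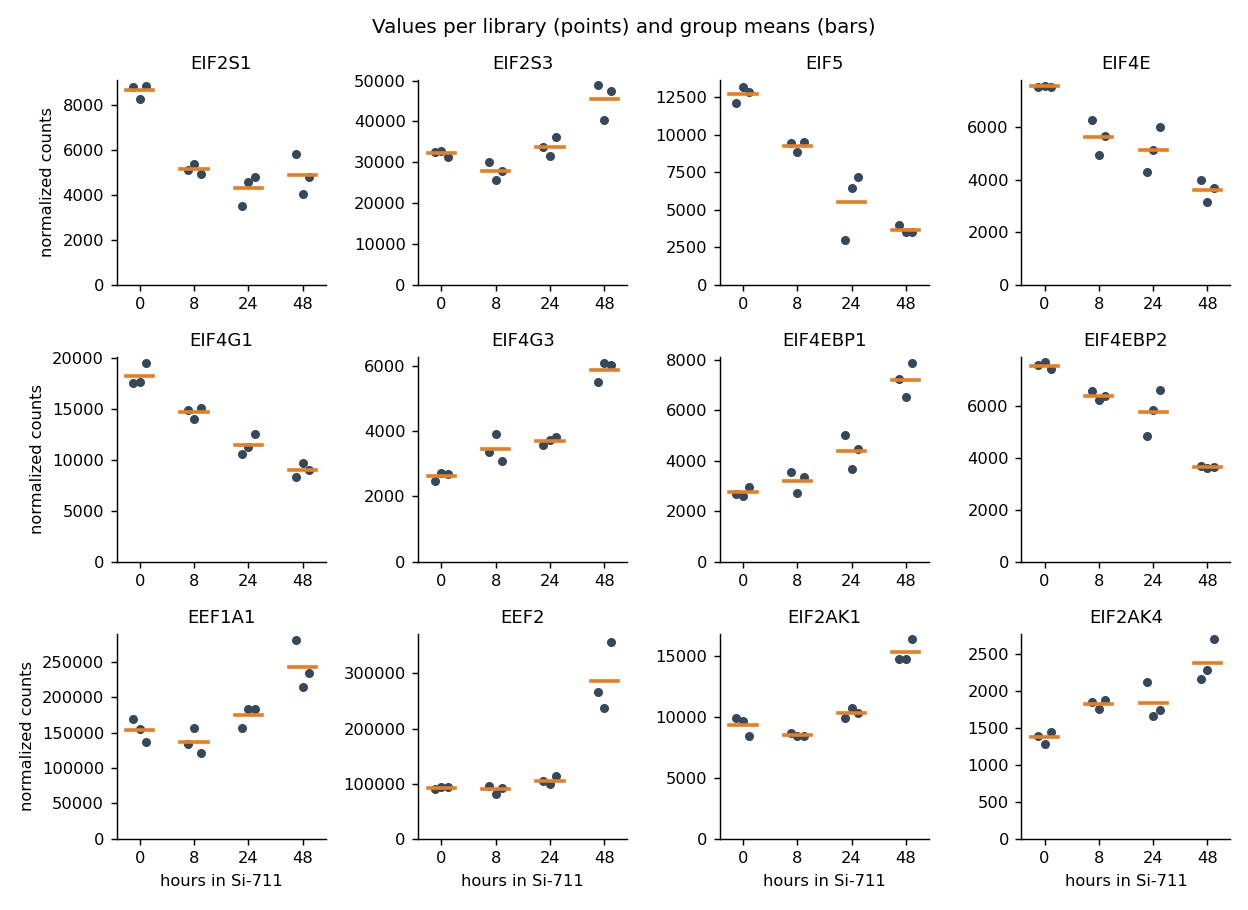
Normalized counts (vertical axes, from 0) of 12 members by hours in Si-711, with each library as a point and the group mean as a bar. EIF2S1, EIF5, EIF4E, EIF4G1 and EIF4EBP2 lie lower at 48 h than in untreated cells in every library, and the other 7 genes lie higher in every library.

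The eIF4E repressors moved in opposite directions. EIF4EBP1, whose product is the best known mTORC1 target among them, had 2688, 2609 and 2950 in untreated cells, 3565, 2703 and 3340 at 8 h, 5004, 3679 and 4443 at 24 h and 7215, 6524 and 7847 at 48 h. It rose by 0.66 at 24 h (SE 0.13, adjusted p = 0.000738) and 1.39 at 48 h (SE 0.13, adjusted p = 4.62e-07). EIF4EBP2 (chr10:70404379-70428618) had 7539, 7666 and 7399 in untreated cells, 6541, 6224 and 6369 at 8 h, 4823, 5821 and 6587 at 24 h and 3690, 3586 and 3652 at 48 h, and fell by 1.05 at 48 h (SE 0.09, adjusted p = 3.96e-07). At 24 h its value of -0.40 was called, but not after equal totals (-0.22) or under quantile normalization (-0.14). EIF4EBP3, at 6 to 29 in untreated cells and 32 to 61 at 48 h, was also called as a rise (2.00, SE 0.59, adjusted p = 0.0083); it shares its locus with a readthrough transcript of ANKHD1.

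The ratio of EIF4EBP1 to EIF4EBP2 was 0.364 in untreated cells and then 0.499, 0.762 and 1.97 at the 3 times, so that the lower of the pair became the higher. Groups did not overlap at any time, which with 3 libraries against 3 gives the smallest exact permutation p possible, 0.1 (two-sided), or 0.131 after Benjamini-Hochberg adjustment over 21 ratio comparisons of 7 pairs. Of 12 tested genes of the mTORC1 pathway and of kinases that act on translation factors, 6 rose and 4 fell at 48 h. The shares of all genes were 32.3% and 33.8%, and equal totals gave 3 up and 4 down of the 12. DDIT4 (REDD1), which restrains mTORC1, rose by 2.04 at 8 h and 3.17 at 24 h and was at 0.44 at 48 h (adjusted p = 0.088). TSC1, another restraint on the pathway, rose by 1.93 at 48 h, while AKT1S1 (PRAS40), which inhibits mTORC1 in its unphosphorylated form, fell by 0.63, 1.15 and 2.22 at the 3 times. MKNK2, a kinase of eIF4E, fell by 1.03 at 48 h.

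**Figure D5:**
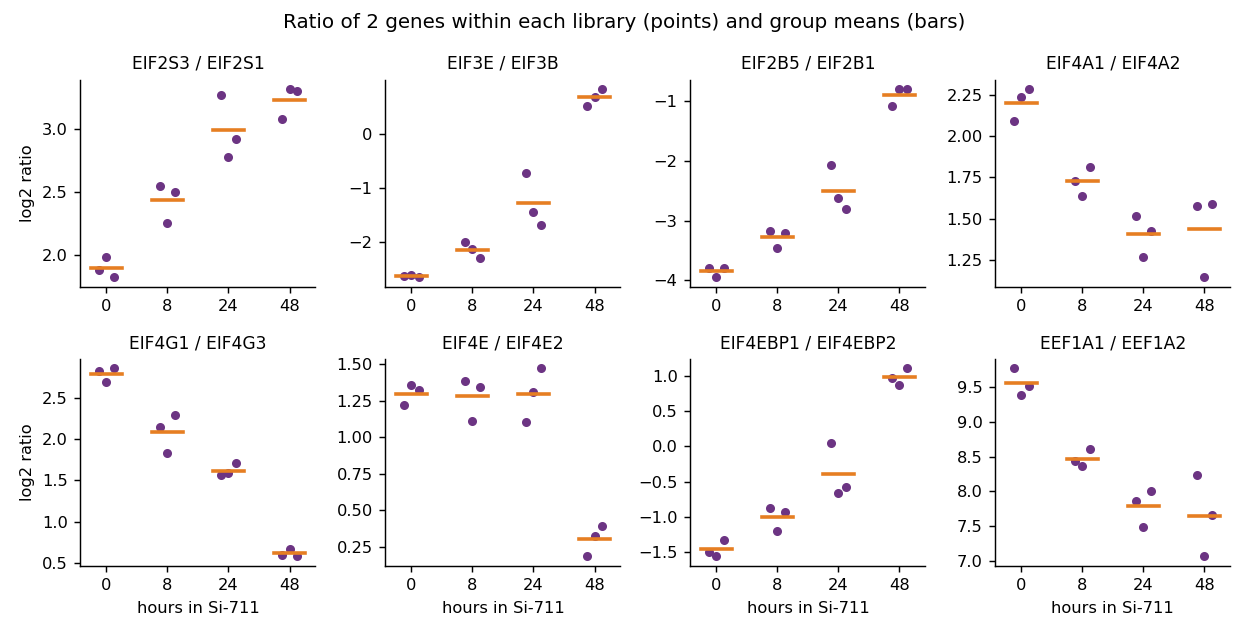
Log2 ratio of the normalized counts of 2 genes in the same library (vertical axes) by hours in Si-711, with each library as a point and the group mean as a bar, for 8 pairs. For EIF4EBP1 over EIF4EBP2 the 48 h libraries lie above 0, meaning more EIF4EBP1 than EIF4EBP2, and all untreated and 8 h libraries lie below. The pairs EIF2S3 over EIF2S1, EIF3E over EIF3B and EIF2B5 over EIF2B1 were chosen after their values were seen.

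Poly(A)-binding proteins link the tail of the mRNA to the cap complex. PABPC1, the main member, had 106967, 101538 and 96533 in untreated cells and 93361, 55050 and 60902 at 48 h, and fell by 0.58 (SE 0.17, adjusted p = 0.00698), with 48 h replicate 1 close to the untreated libraries. PABPC4 fell from 14071, 15118 and 15557 to 8386, 6940 and 7611 at 48 h (-0.97, SE 0.10), although its call at 8 h (-0.29, adjusted p = 0.0402) was lost when any 1 of the untreated or 8 h libraries was left out, at -0.33 to -0.26. PABPC1L (chr20:44910062-44959035), known for its role in oocytes and early embryos, had 304, 338 and 344 in untreated cells, 596, 791 and 820 at 8 h, 2191, 1488 and 1620 at 24 h and 3837, 4233 and 4085 at 48 h. This 12.3-fold rise (log2 3.62, SE 0.15, adjusted p = 1.48e-09) was the largest of all tested members at 48 h. PABPC4L rose at 24 h by 0.69. Poly(A)-binding genes together made up 0.371% ± 0.016 (SD, n = 3) of normalized counts in untreated cells and 0.226% ± 0.056 (n = 3) at 48 h.

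The genes EEF1G, EEF1A1 and EEF2 of elongation were among the most abundant members. Per kilobase of the longest annotated protein-coding transcript, EEF1G (59526), EEF1A1 (34534), EEF2 (29310) and PABPC1 (29176) had the highest mean levels in untreated cells, and EEF1G (98435), EEF2 (90719) and EEF1A1 (54696) did at 48 h. This order depends on the length used, 4441 bases for EEF1A1 and 1523 for EEF1G. Without division by length, the untreated mean of EEF1A1 (153366) was above that of EEF1G (90658). EEF2 (chr19:3976056-3985469), which drives translocation, had 89864, 94061 and 94283 normalized counts in untreated cells, 95881, 81424 and 92456 at 8 h, 104295, 99252 and 113624 at 24 h and 265970, 237218 and 357913 at 48 h. The first 3 groups lay close together and the 48 h libraries stood 3.05-fold higher (log2 1.61, SE 0.13, adjusted p = 1.51e-07).

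EEF1A1 (chr6:73515750-73523797), the main carrier of charged tRNAs, had 168549, 154446 and 137103 in untreated cells and 281255, 213895 and 233567 at 48 h. Its rise of 0.66 (SE 0.13, adjusted p = 0.000478) was 0.05 under quantile normalization (adjusted p = 0.796), a scaling that gives every library the same distribution of values. EEF1A2, the paralog of muscle and nerve, had 193, 231 and 188 in untreated cells, 388, 476 and 311 at 8 h, 676, 1020 and 710 at 24 h and 934, 1597 and 1157 at 48 h, and rose at each time, by 2.55 at 48 h (SE 0.22, adjusted p = 2.86e-07). EEF1A1 still outnumbered it, 752 to 1 in untreated cells and 201 to 1 at 48 h. Of the eEF1B subunits, which recharge eEF1A, EEF1D rose by 1.33 (SE 0.10) and EEF1G by 0.72 (SE 0.09) at 48 h, the latter at 0.17 and not called under quantile normalization. EIF5A2, a paralog of the hypusinated elongation factor, was at -0.17 (SE 0.36).

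Enzymes that modify elongation factors followed other courses. EEF2KMT, a methyltransferase of eEF2, had 676, 641 and 744 in untreated cells, 681, 729 and 695 at 8 h, 404, 502 and 525 at 24 h and 207, 165 and 150 at 48 h, a 3.96-fold fall (log2 -1.98, SE 0.15, adjusted p = 8.77e-08). EEF1AKMT3, a lysine methyltransferase of eEF1A, rose at 8 h by 0.70 and fell at 48 h by 0.85. EEF2K, the kinase that inhibits eEF2, was between 13 and 186 in all libraries and not called against untreated cells. Among 9 enzymes that place hypusine on eIF5A or diphthamide on eEF2, 5 rose and 2 fell at 48 h. The shares of all genes were 32.3% and 33.8%, and equal totals gave 4 up and 3 down of the 9. DOHH, the hydroxylase that completes hypusine, fell by 0.85, 1.38 and 2.40 at the 3 times, and in the diphthamide pathway DPH2 fell by 2.18 at 48 h, and DPH6 and DPH7 rose by 1.36 and 1.04.

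Members named after translation factors but working elsewhere mostly fell. EIF6, which keeps ribosomal subunits apart, fell by 0.80 at 48 h (SE 0.08), EIF4A3, of the exon junction complex, by 0.78 (SE 0.17), and EIF4ENIF1, which carries eIF4E into the nucleus, by 1.36 (SE 0.13). EEF1E1, a scaffold of tRNA synthetases, fell at 8 and 24 h and was at 0.00 at 48 h.

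Genes that act beside the members were taken as lists. All 6 termination and recycling factors fell at 48 h, beside 33.8% of all genes, with a median of -1.20. ETF1, the release factor that reads stop codons, fell by 0.66, 1.06 and 1.46 at the 3 times. ABCE1, which splits the ribosome, fell by 0.46, 0.80 and 1.14. PELO, the ribosome rescue factor, fell by 1.27 and GSPT2, a release factor GTPase, by 1.32. Of 12 tested accessory proteins of initiation, 4 rose and 6 fell at 48 h, against 32.3% and 33.8% of all genes. Equal totals gave 3 up and 7 down of the 12, and median centring 5 each way. ABCF1 fell by 1.64, NCBP1, of the nuclear cap-binding complex, by 1.47, and LARP1, the repressor that binds TOP mRNAs, by 1.11. DDX3X, a helicase, fell by 1.01 at 8 h and 1.64 at 24 h and was at -0.51 at 48 h (adjusted p = 0.106). Its 8 h call was lost without untreated replicate 2 (-0.92), 8 h replicate 1 (-0.85) or 8 h replicate 2 (-0.94). Of 10 mitochondrial translation factors 3 rose and 3 fell at 48 h, near the 32.3% and 33.8% of all genes. Equal totals gave 1 up and 4 down of the 10. TSFM fell by 2.66 and GFM1 by 1.24, both of mitochondrial elongation, MTIF3, of mitochondrial initiation, rose by 1.10, and MTRF1L, a release factor, fell by 0.94 at 24 h.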

How the data were processed

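Polyadenylated RNA of 12 K-562 libraries was analysed in 4 groups of 3 biological replicates. The deposited table holds a signal per gene, namely counts that the authors normalized with DESeq2 after cutadapt and Salmon on GRCh38, per the submitters' processing notes; versions, annotation release and the counting of strand are not given in the sources used here. Between 49.4 and 72.0% of low values lay within 0.1 of a whole multiple of 1 step, too few to recover reads, so no count method was run and the depth in reads is not known. A shift shared by most genes is removed by this normalization. Salmon divides reads among similar transcripts, so near copies (EIF3C and EIF3CL, EIF2S3 and EIF2S3B) can trade reads; 48 pseudogenes of EEF1A1 summed to under 0.34% of it. Symbols came from a gene name table for 50026 rows and GENCODE 29 for 267, and 819 had none.

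Values were taken as log2(value + 1), so fold changes of low genes are understated. The test was that of limma 3.58.1 under R 4.3.3 (mean trend, 1 fit over 4 groups, 5.08 prior degrees of freedom), two-sided, with Benjamini-Hochberg adjustment over 15424 genes and a threshold of 0.05; the procedure was tested on simulated data. Replicates are called biological by the submitters. Ratios of 2 genes within a library were compared by exact permutation. Promoter windows came from RefSeq.

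The members, lists and pairs were chosen with earlier results of these data known. Members given with values are all kinases and repressors, the 6 largest rises and falls per comparison with untreated cells among called members with a mean of at least 50, the highest member of each role, both genes of each pair and members called in opposite directions; others are given within their complex, chosen after their values were seen. For each list up to 4 called genes with the largest change are named. Alternatives were the value added (0.5 or 8), the filter on low values, 3 other scalings, only the groups compared, the replicate number as a block, and each library left out.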

Additional observations from a re-analysis of the deposited data

Results flagged for a closer look

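A total of 7 tested members (10.6%, against 4.57% of all tested genes) were called in opposite directions at 2 times against the same untreated libraries. The change between the 2 times was also called by limma in each. Since the members were picked for 2 opposite calls, this adds no separate support. EEF1D was at -0.30 at 8 h and 1.33 at 48 h, a difference of 1.63 (SE 0.10, adjusted p = 3.05e-08). EIF3H went from -0.36 to 0.80, a difference of 1.16 (SE 0.10). EIF2A went from -0.33 to 0.77, a difference of 1.10 (SE 0.09), EIF2B2 from -0.47 to 0.34, a difference of 0.81 (SE 0.11), and EIF2D from -0.33 to 0.42, a difference of 0.75 (SE 0.09). EIF5B went from -0.54 at 24 h to 0.48 at 48 h, a difference of 1.02 (SE 0.11, adjusted p = 5.88e-06). EEF1AKMT3 alone among them went down, from 0.70 at 8 h to -0.85 at 48 h, a difference of -1.55 (SE 0.15, adjusted p = 1.6e-06). With equal totals 2 of the 7 (EEF1AKMT3 and EIF5B) were still called in both directions, and under quantile normalization 3 (these and EIF2B2), while median centring kept all 7. The 8 h values with equal totals, none of them called, were -0.14 for EEF1D, -0.20 for EIF3H, -0.17 for EIF2A and -0.17 for EIF2D, and EIF2B2 at 48 h was at 0.14. The first of the 2 calls also rests on single libraries in part: that of EEF1D at 8 h was lost on leaving out untreated replicate 2 (-0.28), untreated replicate 3 (-0.27), 8 h replicate 1 (-0.26) or 8 h replicate 3 (-0.30), and that of EIF3H without untreated replicate 2 (-0.31) or 8 h replicate 3 (-0.30).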

How the results depend on the processing

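Pooled over all other settings, most values for single genes kept their direction and call (counts are given at the end). Fewer did so at 8 h and from 24 to 48 h with equal totals or quantile normalization. The cause of the changes was not tested. With equal totals 8 members fell at 8 h (median -0.0715), 21 rose at 24 h (median -0.0630), and the median at 48 h was -0.0264; from 24 to 48 h 23 rose and 20 fell (median 0.0648). Quantile normalization gave 8 falls at 8 h (median -0.0332), 21 rises at 24 h (median -0.0250), a median of 0.0538 at 48 h, and 19 falls from 24 to 48 h (median 0.15). Median centring gave medians of -0.32 at 8 h and -0.38 at 24 h, 7 rises from 8 to 24 h, and 5 falls from 24 to 48 h (median 0.64). With no filter the median at 48 h was 0.10.

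Values changed sign, with a call in at least 1 of the 2 settings, under quantile normalization for EEF1G (0.229) and EEF2 (0.292) at 8 h, for EEF1G (0.252), EIF2A (0.0266), EIF3D (0.249), EIF3M (0.276) and EIF4H (0.0146) at 24 h, for EIF4A1 (-0.278) at 48 h, and for EEF1A1 (-0.335), EEF1G (-0.0788), EIF2S3 (-0.329), EIF4A1 (-0.102) and EIF4B (-0.427) from 24 to 48 h; EIF2S3 was called both ways, a rise of 0.43 becoming a fall. With equal totals the sign changed for EIF3M at 24 h (0.177) and for EIF2AK4 (-0.00412) and EIF2B4 (-0.0349) from 24 to 48 h.

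Leaving out 1 library gave 12 to 23 falls and 4 to 6 rises at 8 h, 25 to 31 falls and 12 to 14 rises at 24 h, and 20 to 21 falls and 28 to 30 rises at 48 h, where the median was 0.15 to 0.25 (0.25 without untreated replicate 3). From 8 to 24 h 5 to 13 rose and 5 to 12 fell, and from 24 to 48 h 33 to 36 rose and 10 to 13 fell. To look for pairing, the group mean of each gene was subtracted and libraries of different groups were correlated. The correlations between libraries of the same replicate number were then weak, with a median of 0.02 (range -0.07 to 0.142) and 2 of 18 over 0.1. Those of different numbers had a median of -0.02, with 1 of 36 over 0.1. A total of 7 of 12 libraries correlated best with their own number, so weak pairing is possible and was not tested. With the number as a replicate block 29 members rose and 21 fell at 48 h. Of 8432 values for single genes in other settings, 7936 kept direction and call, 249 lost the call, 149 gained it, 82 uncalled values changed sign and 16 changed sign with a call. This pool includes fits without a library outside the comparison, where the fold change cannot move, and values not called in either setting. At 8 h 50 of 90 values kept direction and call with equal totals, and 50 of 90 under quantile normalization. From 24 to 48 h these numbers were 41 and 44 of 66. Standard errors were over 0.5 for EEF2K, EIF2AK3, EIF2S3B, EIF3CL and EIF4EBP3, where smaller changes could not be detected.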

Other observations

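Noncoding rows named after the members were measured beside them. EIF2AK3-DT, a transcript divergent from the PERK gene, had 44.6, 42.3 and 28.9 normalized counts in untreated cells, 67.8, 102 and 83.0 at 24 h, and 18.1, 19.6 and 25.5 at 48 h. EIF3J-DT had 143, 185 and 132 in untreated cells and 86.2, 74.9 and 15.4 at 48 h. Both were picked after their values were seen, and neither is a member. The pseudogene of EIF3F held 1.58 to 2.11% of the level of EIF3F as group means.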
